A study of Saccharomyces cerevisiae with 12 samples.

Results

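The transcriptome of an evolved strain of Saccharomyces cerevisiae was compared with that of a parental strain while both grew on xylose. The comparison used 4 of the 12 arrays of the study, the 2 titled evolved strain and the 2 titled parental strain, and only probe sets that carry a single S. cerevisiae gene. All cultures were inoculated at an initial optical density of 0.1 (660 nm) into YPX medium with 4% xylose, shaken at 200 rpm and 35 °C and collected at 25 h, so the groups shared sugar, temperature and time and differed in strain. The labels name both strains only as parental and evolved, call the 2 arrays of each biological replicates, and give no genotype, ploidy or selection history in the sources used here. The evolved group is 1 strain, so its arrays say nothing about other evolved lines. The other 8 arrays are homozygotes obtained from the evolved strain, 1 array for each strain, and they are used here for the spread between arrays and as values set beside the others.

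Xylose enters yeast through hexose transporters, which carry it less well than glucose. Inside the cell it is turned into xylulose, phosphorylated by xylulokinase and passed through the pentose phosphate pathway into glycolysis. Transketolase in that pathway and pyruvate decarboxylase in fermentation need thiamine diphosphate, and transaminases and several enzymes of sulfur and one-carbon metabolism need pyridoxal phosphate, the active form of vitamin B6. Yeast switches on sulfur assimilation through the activator Met4 and iron uptake through the activator Aft1, each controlling a broad set of genes.

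Expression was read as the deposited signal, an intensity on a linear scale, and differences are given on the log2 scale as evolved minus parental. The background of an array, taken as the 90th percentile of its probe sets for the fission yeast Schizosaccharomyces pombe, lay between 18.7 and 19.6 units, and the median gene was 25.3 to 27.8 times brighter. The median absolute log2 difference was 0.22 between the parental arrays and 0.19 to 0.20 between a parental and an evolved array. By this measure the parental duplicates lay no closer to each other than to the evolved strain. Genes that differed at least 2-fold were fewer between the parental arrays, 102, than between a parental and an evolved array, 123 to 169. The evolved arrays were much closer to each other, with a median difference of 0.06 and 1 gene beyond 2-fold, and it is uncertain whether their spread is that of independent cultures. The 17 probe sets for ribosomal RNA averaged 11.99 and 12.01 on the log2 scale in the parental arrays and 11.57 and 11.63 in the evolved arrays, a difference of -0.40. The number of arrays limits the precision, and an exact permutation test of 2 against 2 arrays cannot go below p = 0.333, so genes were tested with limma across all 5352 genes above background.

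limma called 171 genes higher (3.20% of those tested) and 279 lower (5.21%) in the evolved arrays at an adjusted p under 0.05. Both evolved values lay above both parental values in 1275 genes (23.8%) and below both in 1498 (28.0%), and the arrays overlapped in 2579. Together 2773 genes (51.8%) did not overlap, and all 450 called genes (8.41%) were among them. The called rises had a median log2 change of 0.67 and the called falls one of -0.65, against -0.01 for all genes. A change of at least 2-fold was called in 38 genes upwards and 59 downwards. The gap between the nearest evolved and parental arrays was at least 2-fold in 20 genes above and 29 below.

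These p-values borrow most of their estimate of spread from the 8 homozygotes, and only 45 of the 450 genes were also called when the 4 arrays were fitted alone. Of the 24 largest changes, 7 rises (SNO1, THI4, YPS6, THI13, MET6, MET3 and ARG3) and 4 falls (STL1, SIT1, FIT2 and ICL1) were among those called with the 4 arrays alone. A model that let each strain group have its own spread kept 184 of the 450 calls, and counting both evolved arrays as 1 sample kept 133. Without a parental array the counts became 231 higher and 332 lower (without array 1) and 403 and 460 (without array 2), and 107 of the 450 genes were called whichever 1 of the 4 arrays was left out.

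**Figure D1:**
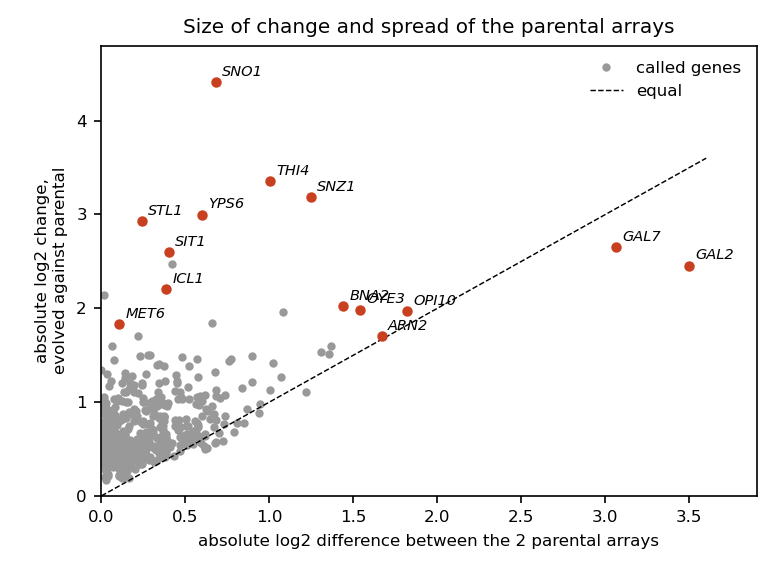
For each called gene, the absolute log2 difference between the 2 parental arrays (x axis) is plotted against the absolute log2 change of the evolved against the parental arrays (y axis). SNO1, STL1, YPS6 and MET6 lie far above the dashed line of equality, while GAL7, GAL2 and OPI10 lie near or below it, with 1 parental array far from the other.

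At the edge of the non-overlap rule the values touched. Just inside it were VPS27 and DMA1 above and YKR075C and TPO4 below, with log2 changes of 0.09, 0.15, -0.46 and -0.32. Just outside were RPL36A and GPM1 on the upper side and FAR11 and PAA1 on the lower side, with changes of 0.08, 0.10, -0.17 and -0.03. YKR075C, for instance, was at 1058 and 608.3 in parental arrays 1 and 2 and at 608.3 and 559 in evolved arrays 1 and 2. Non-overlap alone therefore did not mark a difference beyond the spread between arrays. In what follows the values of a gene are given for parental arrays 1 and 2, then evolved arrays 1 and 2, and "rose" and "fell" are used for called genes. Over all genes 3.20% rose and 5.21% fell, and a list count near these shares says little about the list. Leaving out 1 evolved array left 1 in that group, so a call could be lost while the change hardly moved.

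**Figure D2:**
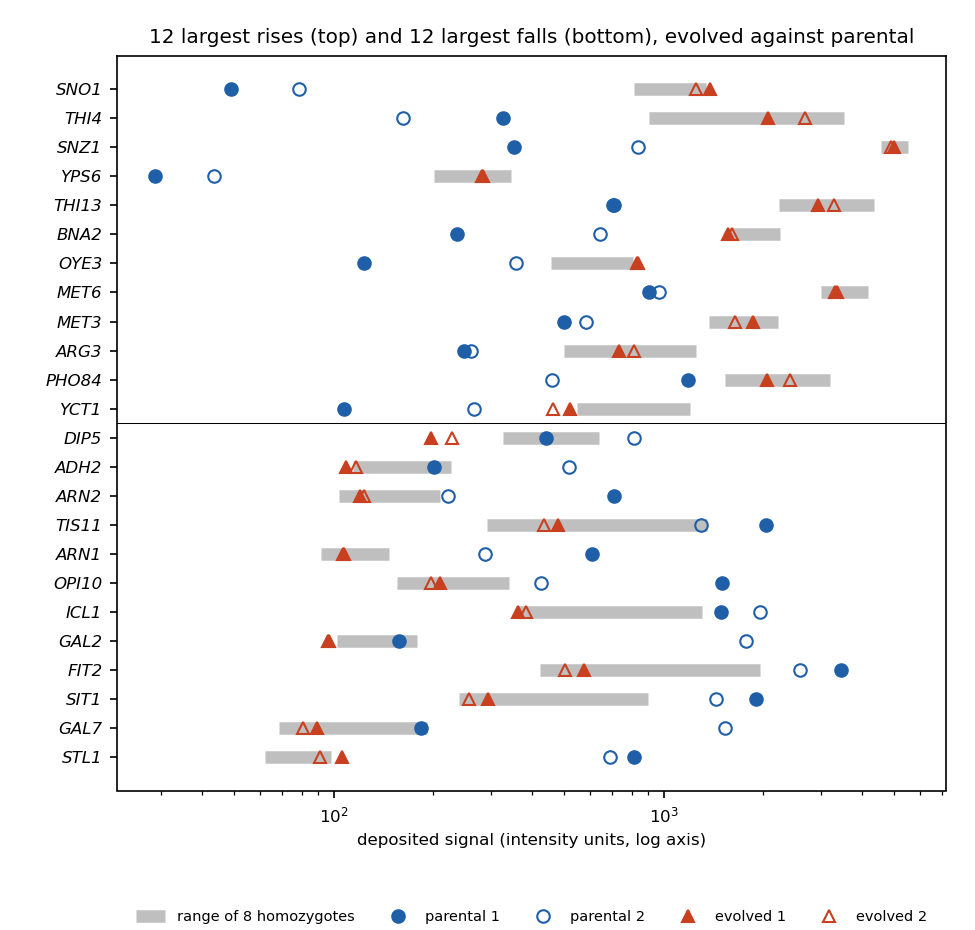
Deposited signal (log axis) of the 12 largest called rises (top) and 12 largest called falls (bottom) in each parental array (circles) and evolved array (triangles), with the range of the 8 homozygotes as a grey bar. SNO1, THI4, SNZ1 and YPS6 are separated widely, the evolved arrays nearly coincide for most genes, and GAL7 and GAL2 have 1 high parental array.

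In vitamin B6 synthesis 5 of 7 tested genes rose and none fell, with a median log2 change of 0.98, and the list held the largest single rise, that of SNO1. SNO1 and SNZ1 are neighbours on chromosome XIII and encode the glutaminase and synthase subunits of the complex that makes pyridoxal phosphate. SNO1 was at 48.8 and 78.3 in the parental arrays and at 1379 and 1257 in the evolved arrays, and the homozygotes lay between 811 and 1347. It was thus low in both parental arrays and high in the other 10, rising 21.3-fold (log2 change 4.41 ± 0.26, SE, adjusted p = 8.7e-07). SNZ1 was at 352 and 836 against 4987 and 4880, a 9.09-fold rise (3.18 ± 0.26, adjusted p = 1.0e-05). The parental arrays differed from each other here, and the change was 2.56 without array 1 and 3.81 without array 2.

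The other rises of the list were smaller. TPN1, the plasma membrane importer of pyridoxine, went from 761 and 873 to 1422 and 1409 (0.80 ± 0.11). The subtelomeric paralogs SNO3 and SNZ3 on chromosome VI were measured by probe sets that also match close relatives, so which copy was detected is uncertain. SNO3 was at 148 and 190 against 317 and 345, and SNZ3 at 319 and 669 against 982 and 1261. Both calls needed parental array 1, and without it the changes were 0.80 (adjusted p = 0.12) for SNO3 and 0.73 (adjusted p = 0.23) for SNZ3, and both were lost without either evolved array (adjusted p from 0.14 to 0.26).

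Thiamine synthesis and uptake had 6 rises and no falls among 16 tested genes and a median of 0.44. Leaving out parental array 1 gave 9 rises and a median of 0.65, and leaving out array 2 gave 4 and 0.27. THI4 encodes the thiazole synthase, a protein used up by giving its own sulfur to the product. It was at 326 and 163 in the parental arrays and 2079 and 2681 in the evolved arrays, a 10.2-fold rise (3.36 ± 0.53, adjusted p = 0.0015). The homozygotes ranged widely, from 902 to 3534, yet none came near the parental values. THI13, of the pyrimidine branch, was at 702 and 710 against 2936 and 3285 and rose 4.40-fold (2.14 ± 0.24, adjusted p = 0.00013). Its probe set also matches the near-identical members of that family, so the copy is uncertain.

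THI20 and THI6, whose products act where the pyrimidine and thiazole parts are joined, rose by 0.61 ± 0.11 and 0.63 ± 0.13. PHO3, an acid phosphatase that releases thiamine from its phosphates, rose by 0.66 ± 0.15, with 3164 and 2221 against 4139 and 4222. PET18 went from 1631 and 1107 to 2126 and 2564 (0.80 ± 0.20). Calls of the last pair were lost without parental array 2, where PHO3 was at 0.40 (adjusted p = 0.055) and PET18 at 0.52 (adjusted p = 0.12). Without evolved array 1 PHO3 had an adjusted p = 0.089, PET18 one of 0.081 and THI6 one of 0.051, and without evolved array 2 they had 0.10, 0.21 and 0.12. The transporter gene THI7 was at 1575 and 1206 against 1833 and 1996, a difference of 0.47 (adjusted p = 0.067).

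**Figure D3:**
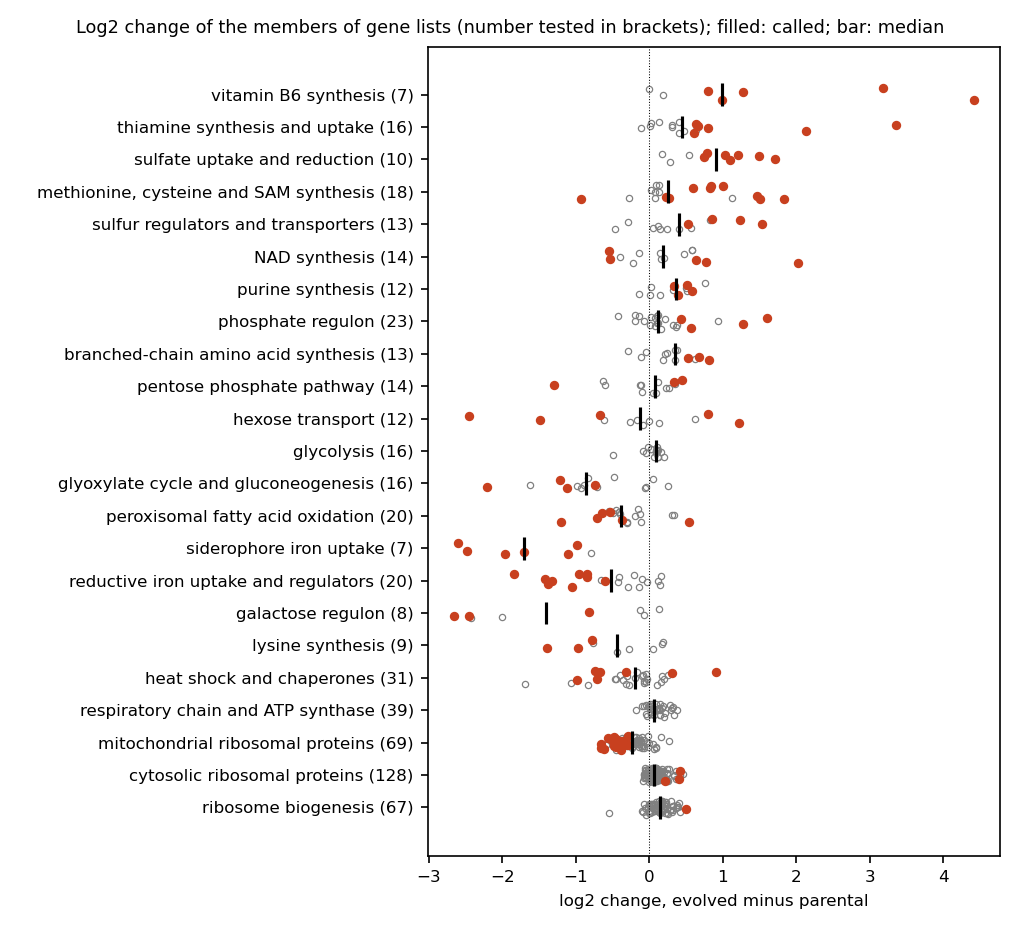
Log2 change of every tested member of 23 gene lists, with called genes filled, the others open and the list median as a bar. The medians of the sulfur and vitamin lists lie to the right of 0 and those of the iron uptake and glyoxylate lists to the left, while the respiratory chain and glycolysis sit close to 0.

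Sulfate uptake and reduction had 7 rises and no falls among 10 genes, and the median log2 change was 0.91. All 10 were above both parental arrays, against 23.8% over all genes. SUL2, a high-affinity sulfate permease, went from 141 and 164 to 328 and 323 (1.10 ± 0.20, adjusted p = 0.0044). MET3, the sulfurylase that activates sulfate, was at 500 and 580 against 1873 and 1644, and in the homozygotes between 1371 and 2223. The evolved values lay far above either parental value, and MET3 rose 3.26-fold (1.70 ± 0.18, adjusted p = 0.00011).

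MET14, the kinase of the next step, rose by 0.75 ± 0.16, and MET16, the reductase after it, by 1.04 ± 0.24. MET5 and MET10, the subunits of sulfite reductase, rose 2.31-fold and 2.83-fold (SE 0.16 and 0.17 on the log2 scale), and MET1, which makes the sirohaem that this enzyme needs, by 0.79 ± 0.14. Every step from sulfate uptake to sulfide therefore had at least 1 called rise. The call of MET16 was lost when parental array 2 was left out (0.79, adjusted p = 0.068), and also without evolved array 1 (adjusted p = 0.12) or 2 (adjusted p = 0.10). SUL2 and MET14 were lost without evolved array 1 (adjusted p = 0.051 and 0.10), and MET14 also without evolved array 2 (adjusted p = 0.055). SUL1, the second permease, was dim, at 35.9 and 38.6 against 44.2 and 46.7, and was not called.

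Downstream, methionine, cysteine and S-adenosylmethionine synthesis had 9 rises and 1 fall among 18 genes, with a median of 0.25. MET6, the cobalamin-independent methionine synthase, was at 904 and 972 against 3345 and 3307. Both pairs were tight, the groups were far apart, and the gene rose 3.55-fold (1.83 ± 0.12, adjusted p = 2.7e-06). MET2, which activates homoserine, rose from 262 and 317 to 885 and 759 (1.51 ± 0.18), and MET17, which adds sulfide to the product of MET2, rose by 0.82 ± 0.12.

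The S-adenosylmethionine synthetase genes SAM2 and SAM1 rose by 1.46 ± 0.15 and 0.84 ± 0.12. SAM2 stood at 911 and 1352 against 3171 and 2956. The other rises of the list were those of MHT1 (from 383 and 427 to 832 and 788), which makes methionine with S-methylmethionine, MET13 (0.59 ± 0.14), a methylenetetrahydrofolate reductase, CYS4 (0.26 ± 0.08) and SAH1 (0.23 ± 0.04). The fall was that of SAM4, a homocysteine methyltransferase that uses S-adenosylmethionine, from 359 and 440 to 195 and 222 (-0.94 ± 0.17, adjusted p = 0.0035). MET13 was lost without parental array 2 (0.39, adjusted p = 0.069). CYS4 was lost without either parental array, at 0.25 (adjusted p = 0.11) without array 1 and 0.28 (adjusted p = 0.061) without array 2. Without evolved array 1 SAM4, MHT1, SAH1, MET13 and CYS4 had adjusted p = 0.058, 0.060, 0.055, 0.10 and 0.32, and without evolved array 2 MET13 and CYS4 had 0.12 and 0.12. MXR1, a methionine sulfoxide reductase and the neighbour of SAH1, was chosen after its values were seen and rose from 699 and 701 to 1384 and 1329 (0.95 ± 0.15).

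Of 13 regulators and transporters of sulfur metabolism 4 rose and none fell, with a median of 0.40. MET32, a DNA-binding partner of Met4, was at 86.3 and 89.6 against 216 and 197 (1.23 ± 0.26, adjusted p = 0.0096). MET30, the ubiquitin ligase subunit that restrains Met4, rose by 0.52 ± 0.10 in the same arrays. MET4 itself differed by 0.11 (adjusted p = 0.55), from 873 and 804 to 911 and 903. The cysteine transporter gene YCT1 was at 108 and 267 against 520 and 463 (1.53 ± 0.41, adjusted p = 0.036), and the methionine permease gene MUP1 at 461 and 587 against 919 and 956 (0.85 ± 0.20). Both calls needed parental array 1, with changes of 0.88 (adjusted p = 0.20) and 0.67 (adjusted p = 0.093) without it, and also both evolved arrays (adjusted p from 0.12 to 0.21 without 1 of them). MET32 was lost without evolved array 1 (adjusted p = 0.099) or 2 (adjusted p = 0.057), and MET30 without evolved array 2 (adjusted p = 0.092). STR3, a cystathionine beta-lyase, was at 100.2 and 206 against 310 and 317, between the parental arrays and the homozygotes, which spanned 427 to 1847, and its change of 1.13 ± 0.60 was not called (adjusted p = 0.28). MMP1, the S-methylmethionine permease, differed by 0.82 (adjusted p = 0.075).

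Genes of one-carbon metabolism were examined after their values were seen, next to methionine synthesis. GCV2, the pyridoxal phosphate-dependent subunit of glycine decarboxylase, was at 719 and 702 against 1825 and 1686 and rose 2.47-fold (1.30 ± 0.10, adjusted p = 5.6e-06). GCV1, another subunit, rose from 1205 and 1934 to 3380 and 3316 (1.13 ± 0.16). The third subunit gene, GCV3, lies on chromosome I and went from 2708 and 3221 to 3766 and 3567, a difference of 0.31 (adjusted p = 0.12). SER33, which starts serine synthesis, rose by 0.99 ± 0.19 and was at 0.060 in adjusted p without evolved array 1.

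**Figure D4:**
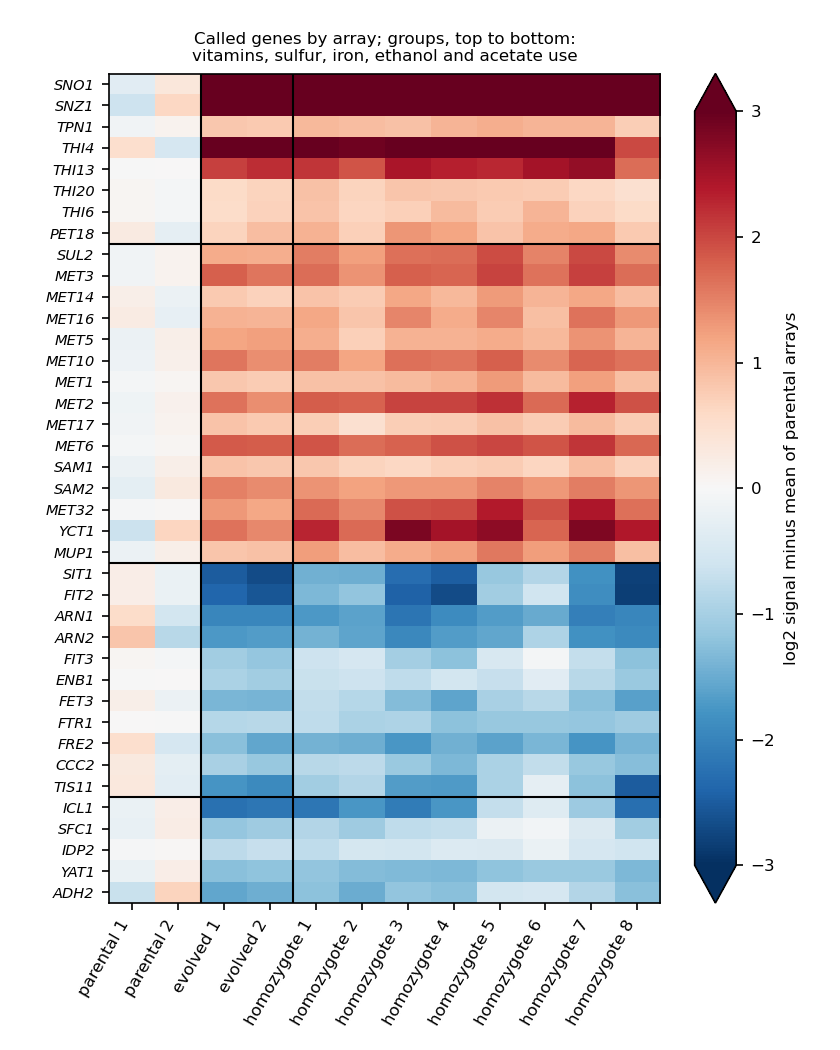
Log2 signal of called genes minus the mean of the parental arrays (colour, from -3 in blue to 3 in red), with genes in rows and the 12 arrays in columns. SNO1, SNZ1 and THI4 exceed the colour range in the evolved arrays, the sulfur genes are red and the iron genes blue in both evolved arrays, and several iron rows and ICL1 are paler in homozygotes 5 and 6.

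Of 7 genes of siderophore iron uptake 6 fell and none rose, FIT1, the remaining one, was also below both parental arrays, and the median log2 change was -1.70. Leaving out parental array 1 gave 3 falls and a median of -1.04, and leaving out parental array 2 gave 6 and -2.50. SIT1, a ferrioxamine transporter, was at 1912 and 1447 in the parental arrays and 294 and 257 in the evolved arrays. Both evolved values were far below, and it fell 6.06-fold (-2.60 ± 0.50, adjusted p = 0.0058). FIT2, a cell wall mannoprotein that holds siderophores, was at 3457 and 2587 against 573 and 504, a 5.56-fold fall (-2.48 ± 0.61, adjusted p = 0.023). In the homozygotes FIT2 ran from 422 to 1966, a wide range that did not reach the parental arrays.

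The transporter genes ARN1 and ARN2 fell by 1.96 and 1.70 on the log2 scale (SE 0.28 and 0.41). ARN2 was at 708 and 223 against 120 and 124, so parental array 1 carried most of its fall, and without that array it was at -0.87 (adjusted p = 0.10). ENB1, the enterobactin transporter gene, had tight pairs, at 698 and 712 against 368 and 344 (-0.99 ± 0.18, adjusted p = 0.0036). FIT3, a further mannoprotein, went from 6819 and 6215 to 3137 and 2909 (-1.11 ± 0.30, adjusted p = 0.036). Without parental array 1 the fall of FIT2 was -2.27 (adjusted p = 0.079) and that of FIT3 -1.04 (adjusted p = 0.10), and without parental array 2 FIT3 was at -1.17 (adjusted p = 0.0502). Without evolved array 1, FIT2, FIT3 and ARN2 had adjusted p = 0.12, 0.16 and 0.14, and without evolved array 2, SIT1 had 0.057, FIT2 0.14, FIT3 0.19 and ARN2 0.12. FIT1 differed by -0.79 (adjusted p = 0.057), with 477 and 242 against 206 and 187.

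Reductive iron uptake and its regulators had 9 falls and no rises among 20 genes, with a median of -0.51. FET3, the multicopper oxidase, and FTR1, the permease, form the high-affinity iron uptake complex. FET3 went from 3040 and 2351 to 1035 and 1019 (-1.38 ± 0.27, adjusted p = 0.0058), and FTR1 from 2271 and 2209 to 1231 and 1260 (-0.85 ± 0.13, adjusted p = 0.0015). The vacuolar counterparts FET5 and FTH1 fell by 0.61 and 0.85 (SE 0.14 and 0.16). CCC2, which loads copper onto Fet3, fell by 1.06 (SE 0.22), and SMF3, a vacuolar metal exporter gene, by 0.96 (SE 0.24).

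TIS11, whose product degrades transcripts of iron-using proteins when iron is scarce, was at 2051 and 1302 against 479 and 434 (-1.84 ± 0.51, adjusted p = 0.038). The reductase gene FRE2 was at 149 and 73.3 against 43.6 and 35.2 (-1.41 ± 0.25). FRE5 was under background in both evolved arrays, at 17.9 and 13.4, so from 48.9 and 30.6 it was at least 1.996-fold lower. AFT1, the activator of these genes, differed by -0.42 (adjusted p = 0.15). None of the 14 tested genes of mitochondrial iron-sulfur cluster assembly was called in either direction (median 0.02), and 1 in each direction was without parental array 2. Several calls of this list were lost when 1 array was left out. Without evolved array 1 or 2 the change of FET3 hardly moved (-1.39 and -1.37), and that of FRE2 moved more (-1.57 and -1.26). Without parental array 1 TIS11 was at -1.51 (adjusted p = 0.14) and CCC2 at -0.77 (adjusted p = 0.054), and without parental array 2 SMF3 was at -0.76 (adjusted p = 0.092). Without evolved array 1 FET3, FET5, CCC2, SMF3 and TIS11 had adjusted p = 0.055, 0.15, 0.052, 0.14 and 0.17. Without evolved array 2 FET3, FET5, FTH1, CCC2, SMF3, TIS11, FRE2 and FRE5 had adjusted p = 0.052, 0.070, 0.064, 0.091, 0.15, 0.19, 0.055 and 0.051.

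STL1, which encodes a proton-coupled importer of glycerol and is repressed by glucose, fell most. It was at 812 and 687 in the parental arrays and 106 and 91.2 in the evolved arrays, and at 62.0 to 98.5 in the homozygotes. No array of the evolved strain or its homozygotes came near a parental one, and STL1 fell 7.60-fold (-2.93 ± 0.20, adjusted p = 2.9e-06). Among 13 genes of glycerol metabolism and transport the other fall was that of GUP1 (-0.57 ± 0.12), none rose, and the median was -0.15. The call of GUP1 needed parental array 2 (-0.44 without it, adjusted p = 0.051) and was lost without evolved array 1 (adjusted p = 0.14) or 2 (adjusted p = 0.058).

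Of 16 genes of the glyoxylate cycle and gluconeogenesis 4 fell and none rose, and the median was -0.86. Below both parental arrays were 12 of them (75%, against 28.0% over all genes). The falls numbered 9 without parental array 1, with a median of -1.17, and 3 without parental array 2, with a median of -0.53. ICL1, isocitrate lyase, was at 1499 and 1956 against 362 and 382, a 4.60-fold fall (-2.20 ± 0.52, adjusted p = 0.020). The homozygotes spread from 356 to 1308, all still below the parental arrays. SFC1, a mitochondrial succinate-fumarate carrier gene, went from 2145 and 2907 to 1113 and 1190 (-1.12 ± 0.29), and IDP2, the cytosolic isocitrate dehydrogenase gene, fell by 0.74 (SE 0.14). YAT1, a carnitine acetyltransferase gene, fell by 1.22 (SE 0.13) and lies on chromosome I. Some members that were not called were highest in parental array 2. PCK1, of gluconeogenesis, was at 1834 and 4988 against 1190 and 1425, FBP1 at 1561 and 3513 against 1128 and 1252, and MLS1, malate synthase, at 624.9 and 1180 against 459 and 505. None of the 3 was called (adjusted p = 0.12, 0.14 and 0.092). Without parental array 2 ICL1 was at -2.01 (adjusted p = 0.053) and SFC1 at -0.90 (adjusted p = 0.10). Without evolved array 1 ICL1, SFC1 and IDP2 had adjusted p = 0.14, 0.19 and 0.058, and without evolved array 2 ICL1 and SFC1 had 0.11 and 0.14. ADY2, an acetate transporter gene named for its size, was at 416 and 382 against 117 and 143, but its change of -1.63 ± 0.58 was not called (adjusted p = 0.10). Its homozygotes ran from 176 to 637, and limma on the 4 arrays alone called it (adjusted p = 0.047).

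Peroxisomal fatty acid oxidation had 5 falls and 1 rise among 20 genes and a median of -0.39, and 8 falls when parental array 2 was left out. OAF1, an oleate-responsive activator gene on chromosome I, fell from 213 and 232 to 95.1 and 98.6 (-1.20 ± 0.13). POT1, FOX2, PXA1 and TES1, which encode the thiolase, the multifunctional enzyme, an importer subunit and a thioesterase, fell by 0.71, 0.54, 0.65 and 0.37. FAA1, a fatty acid activating enzyme gene, rose by 0.54 ± 0.10. POT1 and FOX2 were lost without parental array 1 (-0.55, adjusted p = 0.16, and -0.46, adjusted p = 0.068), and TES1 without parental array 2 (-0.33, adjusted p = 0.063). Without 1 evolved array POT1, FOX2, PXA1 and TES1 missed the threshold in each case (adjusted p from 0.055 to 0.26), as did FAA1 without evolved array 1 (adjusted p = 0.053).

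In the galactose regulon the parental arrays differed from each other. Of 8 tested genes 3 fell and none rose, with a median of -1.41. Leaving out parental array 1 moved that median to -2.56, with 5 falls, and leaving out array 2 moved it to -0.35. GAL7 was at 184 and 1540 against 88.9 and 80.6 (-2.65 ± 0.67, adjusted p = 0.026), and GAL2, the galactose permease gene, at 157 and 1779 against 96.8 and 96.3 (-2.45 ± 0.71, adjusted p = 0.048). Without parental array 2 their changes were -1.12 (adjusted p = 0.073) and -0.71 (adjusted p = 0.094), and GAL3 was at -0.50 (adjusted p = 0.14). No member of the list was called without parental array 2 or without either evolved array. GAL1 was at 109 and 1711 against 114 and 103, so the evolved arrays sat at the level of parental array 1.

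Genes that handle xylose itself form a short list, and its count of calls says little beside the 3.20% of rises and 5.21% of falls over all genes. The xylose and polyol list had 1 rise and no falls among 9 tested genes, with a median of -0.07. XKS1, xylulokinase, was at 3334 and 3816 against 3377 and 3395, a difference of -0.08 ± 0.14 (adjusted p = 0.79) that was 0.02 without parental array 2. GRE3, whose aldose reductase accepts xylose, was at 1466 and 1864 against 1311 and 1399, a difference of -0.29 ± 0.14 (adjusted p = 0.24). The evolved arrays overlapped the parental ones for XKS1 and lay below them for GRE3, in neither case beyond the spread. SOR2, a sorbitol dehydrogenase gene, rose from 1822 and 2609 to 5034 and 4735 (1.16 ± 0.14, adjusted p = 0.00015), from a probe set that also matches its near-identical copy.

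The pentose phosphate list had 2 rises and 1 fall among 14 genes and a median of 0.07. TAL1, transaldolase, was at 6597 and 6275 against 8240 and 7973 and rose by 0.33 ± 0.04 (adjusted p = 0.00035), a small change in one of the brightest genes, where signals may be compressed. GND2, the minor phosphogluconate dehydrogenase gene, rose by 0.44 ± 0.11. TKL2, the minor transketolase gene, went from 346 and 288 to 117 and 142 and fell 2.46-fold (-1.30 ± 0.17, adjusted p = 0.00038). The major isoforms TKL1 and GND1 differed by 0.12 (adjusted p = 0.25) and 0.22 (adjusted p = 0.27), and ZWF1, which starts the pathway, by 0.35 (adjusted p = 0.093). The rise of GND2 was lost without parental array 1 (0.30, adjusted p = 0.13), evolved array 1 (adjusted p = 0.23) or evolved array 2 (adjusted p = 0.12).

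Among 12 tested hexose transporter genes 2 rose and 3 fell, with a median of -0.13. HXT15, from a shared probe set, was at 443 and 238 against 769 and 737 (1.21 ± 0.23), and HXT13 at 196 and 144 against 289 and 291 (0.79 ± 0.23). HXT5, a carrier of slow-growing cells, was at 509 and 365 against 149 and 160 (-1.48 ± 0.29, adjusted p = 0.0059). The other falls were those of HXT9 (-0.67 ± 0.16) and GAL2, given above. HXT7, a high-affinity carrier whose probe set is shared, differed by -0.09 (adjusted p = 0.78) with 2681 and 2743 against 2694 and 2426. Without parental array 2 HXT13 was at 0.57 (adjusted p = 0.16) and HXT9 at -0.52 (adjusted p = 0.075), and without evolved array 1 HXT15, HXT13, HXT5 and HXT9 had adjusted p = 0.060, 0.21, 0.062 and 0.21, as HXT13 had 0.20 without evolved array 2.

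In glycolysis none of 16 tested genes was called in either direction, with a median of 0.10. The evolved arrays were above both parental arrays in 8 of them (50%, against 23.8% over all genes). With parental array 2 left out 3 glycolytic genes were called higher, and with array 1 left out 1 was called lower. HXK2, hexokinase 2, was at 2560 and 3492 against 2160 and 2067 (-0.50, adjusted p = 0.074). In ethanol and acetate metabolism 1 of 15 genes rose and 3 fell, with a median of 0.15. These figures rested on single arrays, since 8 rose and 2 fell (median 0.27) without parental array 2, and 1 rose and 3 fell (median -0.11) without parental array 1. PDC6, the minor pyruvate decarboxylase gene, known to be induced in sulfur-poor medium, was at 86.3 and 73.6 against 240 and 208 and rose 2.81-fold (1.49 ± 0.15, adjusted p = 5.9e-05). ADH2, the ethanol-oxidising dehydrogenase gene, was at 202 and 516 against 109 and 117 (-1.52 ± 0.38), and at -0.84 (adjusted p = 0.12) without parental array 2. ALD3 fell by 1.01 (SE 0.20) and ACS1, on chromosome I, by 0.52 (SE 0.11). The calls of ADH2 and ACS1 ended when 1 evolved array was left out (adjusted p from 0.061 to 0.16), and that of ALD3 without evolved array 2 (adjusted p = 0.093).

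The tricarboxylic acid cycle had 1 fall, that of IDH1 (-0.29 ± 0.07), among 19 genes, near the 5.21% of lower calls over all genes. None of 39 respiratory chain and ATP synthase genes was called (median 0.07). Both counts depended on the parental arrays. With array 2 left out the tricarboxylic acid cycle had 7 rises and no falls (median 0.19) and the respiratory chain list 14 rises (median 0.18), and with array 1 left out they had 3 falls (median -0.11) and 1 call in each direction (median -0.02). Glucose sensing and repression had 1 fall among 30, below the 5.21% over all genes, that of SIP4 (-1.02 ± 0.27), an activator of gluconeogenic genes. The Ras and protein kinase A list had 2 falls among 21, TPK3 and RAS2. Calls ended for IDH1 without parental array 2 (-0.19, adjusted p = 0.11), for SIP4 without array 1 (-1.06, adjusted p = 0.062) or 2 (-0.97, adjusted p = 0.066), and for TPK3 and RAS2 without array 1 (-0.23 and -0.22). All 4 were lost without either evolved array.

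Lysine synthesis had 3 falls and no rises among 9 genes, with a median of -0.44. It had 5 falls and a median of -0.68 without parental array 1, and 2 falls and -0.21 without parental array 2. LYS9, saccharopine reductase, was at 2357 and 3377 against 1073 and 1082, a 2.62-fold fall (-1.39 ± 0.18, adjusted p = 0.00037). LYS20, homocitrate synthase, fell by 0.96 (SE 0.21) and LYS12 by 0.78 (SE 0.19), LYS20 not without parental array 2 (-0.67, adjusted p = 0.055), and neither without 1 evolved array (adjusted p from 0.086 to 0.14).

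Arginine genes had 4 rises and 3 falls among 12. The synthesis genes ARG3, ARG1, ARG8 and CPA1 rose, and the catabolic genes CAR1 and CAR2 fell, as did ARG2, an early synthesis step. ARG3, ornithine carbamoyltransferase, was at 249 and 261 against 732 and 812, a 3.02-fold rise (1.60 ± 0.31, adjusted p = 0.0064). CAR1, arginase, was at 4173 and 5727 against 2367 and 2405 (-1.03 ± 0.20, adjusted p = 0.0064). ARG1 rose by 1.07 ± 0.22, ARG8 by 0.46 ± 0.11 and CPA1 by 0.34 ± 0.10, while CAR2 and ARG2 were at -0.53 ± 0.10 and -0.54 ± 0.14. Leaving out parental array 1 ended the call of CPA1 (0.30, adjusted p = 0.12), and leaving out parental array 2 ended that of ARG2 (-0.31, adjusted p = 0.16). Without either evolved array all 7 missed the threshold, narrowly for several (adjusted p from 0.0501 to 0.23).

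Branched-chain synthesis had 3 rises and no falls among 13 genes (median 0.34), none without parental array 1 (median 0.07) and 9 rises without parental array 2 (median 0.57). LEU1 was at 540 and 732 against 1136 and 1068 (0.81 ± 0.21), LEU2 at 824 and 1199 against 1606 and 1556 (0.67 ± 0.19) and BAT1, a transaminase gene, rose by 0.53 ± 0.13. All 3 were lost without parental array 1 (changes of 0.59, 0.40 and 0.33) and without either evolved array. Histidine synthesis had 1 rise among 7 genes, HIS5, aromatic amino acids had no call among 15 (1 fall without parental array 1 and 2 rises without array 2), and nitrogen catabolite repressed genes had 1 rise, GLN1, and 1 fall, GDH3 on chromosome I, among 25. HIS5 and GLN1 were lost without parental array 1 (0.32 and 0.23), GDH3 without parental array 2 (-0.35), and all 3 without either evolved array. DIP5, a permease for acidic amino acids, was at 439 and 816 against 198 and 228 and fell 2.82-fold (SE 0.30 on the log2 scale, adjusted p = 0.0082). The homozygotes, at 327 to 637, lay above both evolved arrays for DIP5, and without evolved array 1 its adjusted p was 0.088. ALT2, a pyridoxal phosphate-binding protein related to alanine transaminase, fell from 416 and 437 to 219 and 232 (-0.92 ± 0.14).

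In NAD synthesis and uptake 3 of 14 genes rose and 2 fell, with a median of 0.18, against 2 rises and no falls (0.01) without parental array 1 and 7 rises and 2 falls (0.46) without parental array 2. BNA2, which opens the route from tryptophan, was at 237 and 643 against 1565 and 1615, a 4.07-fold rise (2.03 ± 0.31, adjusted p = 0.0010) that was 1.31 without parental array 1 and 2.74 without array 2. BNA6 and the nicotinic acid permease gene TNA1 rose by 0.78 ± 0.14 and 0.64 ± 0.15. PNC1 and NMA1, of the salvage route, fell by 0.53 and 0.55. TNA1 and PNC1 were lost without parental array 1 (0.35, adjusted p = 0.087, and -0.23, adjusted p = 0.17), as was NMA1 (-0.50, adjusted p = 0.058), and all 3 without either evolved array.

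Purine synthesis had 4 rises and no falls among 12 genes (median 0.36), ADE3, ADE6, ADE12 and ADE13, each between 0.34 and 0.58. Without parental array 1 none of them was past the threshold (changes of 0.20 to 0.22, list median 0.13), and none without either evolved array, whereas 8 genes rose without parental array 2 (list median 0.62). The phosphate regulon had 4 rises and no falls among 23 (median 0.12, or 0.27 and 0.05 without parental array 1 or 2). PHO84, the high-affinity phosphate transporter gene, was at 1186 and 459 against 2055 and 2422 (1.60 ± 0.36, adjusted p = 0.014) and at 0.91 (adjusted p = 0.054) without parental array 2. PHO5, the secreted acid phosphatase gene next to PHO3, was at 378 and 430 against 927 and 1029 (1.28 ± 0.27). PHO4, the activator gene, rose by 0.43 ± 0.10 and PHM6 by 0.56 ± 0.16 (0.48 without parental array 1, adjusted p = 0.14), and all 4 missed the threshold without 1 evolved array (adjusted p from 0.059 to 0.26). Zinc-responsive genes had no call among 12, although ZPS1 was at 9901 and 5178 against 3657 and 3853 (-0.93, adjusted p = 0.37). Their median of -0.34 became -0.05 without parental array 1, with no calls, and -0.64 without parental array 2, with 6 falls and 1 rise. Biotin synthesis and uptake had 1 rise among 7 genes, BIO2 with 0.50 ± 0.14, which was lost without parental array 1 (0.44, adjusted p = 0.12) or either evolved array.

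Mitochondrial ribosomal protein genes had 19 falls and no rises among 69, with a median of -0.24. Of them 50 (72.5%) were below both parental arrays, against 28.0% over all genes. MRPL20 was at 666 and 868 against 484 and 478 (-0.66 ± 0.15), and MRPL49, MRPL7 and RSM25 fell by 0.65, 0.62 and 0.57. All 4 were lost without parental array 2 (-0.47, -0.35, -0.36 and -0.39) and without either evolved array. The count was 31 without parental array 1, 12 without parental array 2, 0 without evolved array 1 and 2 without evolved array 2. Cytosolic ribosomal protein genes had 3 rises (RPS11B, RPS28B and RPP2B) and no falls among 128, below the 3.20% over all genes, with a median of 0.07. Of them 76 (59.4%, against 23.8% over all genes) were above both parental arrays, but the median was only 0.02 after quantile normalization. Ribosome biogenesis had 1 rise, NOP8, among 67 (median 0.15), also below the 3.20% over all genes. RNA polymerase I factors had 1 fall, RRN5 (-0.54 ± 0.10), among 14. The rRNA probe sets were lower by 0.40 in the same evolved arrays, and their part in these values was not tested. The proteasome had 1 fall, PRE1, among 34, below the 5.21% of lower calls over all genes. The 3 cytosolic ribosomal genes, NOP8 and PRE1 were all lost without either evolved array, RRN5 without evolved array 1 (adjusted p = 0.060), and RPS11B, RPS28B, NOP8 and PRE1 without parental array 1 (0.32, 0.40, 0.44 and -0.30). Without parental array 2 RPS28B (0.40, adjusted p = 0.074) and RPP2B (0.20, adjusted p = 0.056) were lost.

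Among heat shock and chaperone genes 2 rose and 5 fell of 31, with a median of -0.19. There were 2 falls without parental array 1 (median -0.12) and 10 without parental array 2. HSP31, a glyoxalase, was at 1678 and 1935 against 3326 and 3419 (0.90 ± 0.13, adjusted p = 0.00067). SSA1, an Hsp70 gene on chromosome I, fell by 0.73 (SE 0.11), and HSP42 was at 5984 and 3108 against 2141 and 2228 (-0.98 ± 0.23). HSP42, SSA2 and FES1 were lost without either evolved array and without parental array 1 (-0.51, -0.43 and -0.28), the array in which several stress genes were high. SSA4, for example, was at 1983 and 675 against 548 and 556 and was not called (adjusted p = 0.073).

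Oxidative stress defence had 5 rises and no falls among 27 (3 and 2 without parental array 1, and 11 and 1 without parental array 2), of which GSH1, which starts glutathione synthesis, was at 434 and 656 against 934 and 994 (0.85 ± 0.16, adjusted p = 0.0043). CCS1, SRX1, HYR1 and GRX1 rose by 0.63, 0.52, 0.36 and 0.26. SRX1 and HYR1 were lost without parental array 1 (0.33, adjusted p = 0.12, and 0.21, adjusted p = 0.19). Of 5 tested genes of the OYE and AAD oxidoreductases 2 rose. OYE3, an NADPH dehydrogenase gene, was at 123 and 358 against 834 and 831, a 3.96-fold rise (1.99 ± 0.37, adjusted p = 0.0047), with the homozygotes between 457 and 810. AAD6 rose by 1.06 ± 0.20. Trehalose and glycogen metabolism had 1 rise, GPH1, among 18, and hypoxic genes had 2 among 15, ANB1 (1.06 ± 0.19) and SUT1 (0.75 ± 0.18). SUT1 was lost without parental array 1 (0.49, adjusted p = 0.11). Without evolved array 1 CCS1, GRX1, HYR1, GPH1, OYE3, ANB1 and SUT1 were lost (adjusted p from 0.0501 to 0.21), and without evolved array 2 GSH1, SRX1, HYR1, AAD6 and SUT1 (adjusted p from 0.054 to 0.23).

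At the cell surface YPS6 stood apart. It encodes a glycosylphosphatidylinositol-anchored aspartic protease of the yapsin family and was at 28.7 and 43.5 in the parental arrays, not far above background, and at 281 and 284 in the evolved arrays. It rose 7.99-fold (2.999 ± 0.24, adjusted p = 1.0e-05), and its relative MKC7 went the other way, from 136 and 89.2 to 50.4 and 54.5 (-1.07 ± 0.22). PMT2 and PMT3, protein mannosyltransferase genes, fell by 1.45 and 0.60 (SE 0.16 and 0.13), PMT2 lying on chromosome I. The call of MKC7 was lost without parental array 1 (-0.77, adjusted p = 0.055), evolved array 1 (adjusted p = 0.089) or evolved array 2 (adjusted p = 0.054). In the flocculation list FLO11 rose by 0.31 ± 0.07 and FLO9, on chromosome I with a shared probe set, and FIG2 fell by 1.40 and 0.40, of 7 tested. FLO11 and FIG2 were lost without parental array 1 (0.23 and -0.32), FLO9 without parental array 2 (-1.23), PMT3, FLO9 and FIG2 without either evolved array, and FLO11 without evolved array 1.

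Sterol synthesis had 3 rises and no falls among 24 genes (ERG1, ERG20 and MVD1, 0.20 to 0.41), and inositol, phospholipid and fatty acid synthesis had no call among 20, or 4 rises without parental array 2. Histones had 2 falls among 9, HTA2 (-0.81 ± 0.18) and HTA1 (-0.22 ± 0.06), and cyclins 1 among 18, CLN3 on chromosome I. Mating and haploid-specific genes had no call among 20 (median 0.01, and 1 call in each direction without parental array 2), and meiosis and sporulation had 1 rise, DIT1 (0.99 ± 0.16), and 2 falls, SPO22 and SPO11, among 19. Without parental array 1 MVD1, HTA1 and SPO11 were lost (0.27, -0.17 and -0.69), and without parental array 2 ERG1 and ERG20 (0.24 and 0.13). Without either evolved array the 3 sterol genes, both histone genes, SPO22 and SPO11 were lost (adjusted p from 0.059 to 0.27). OPI10, named for its size, was at 1502 and 426 against 210.5 and 197 (-1.97 ± 0.44, adjusted p = 0.013). Parental array 1 was the high one, and without it the change was -1.06 (adjusted p = 0.059), and the call was also lost without either evolved array (adjusted p = 0.088 and 0.10).

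Falls were concentrated on chromosome I. Of its 81 tested genes 63 fell and none rose, which is 77.8% against the 5.21% lower calls over all genes, and 22.6% of all lower calls lay there. The median log2 change was -0.81, so the middle gene stood at 0.570 of its parental level, with quartiles at -1.02 and -0.55. The medians of the other 15 chromosomes lay between -0.02 and 0.05, and outside chromosome I the lower calls were 216 of 5271 (4.10%). The parental arrays themselves differed by a median of less than 0.01 on chromosome I, and in the 8 homozygotes the median against the parental arrays ran from -0.80 to -0.75.

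**Figure D5:**
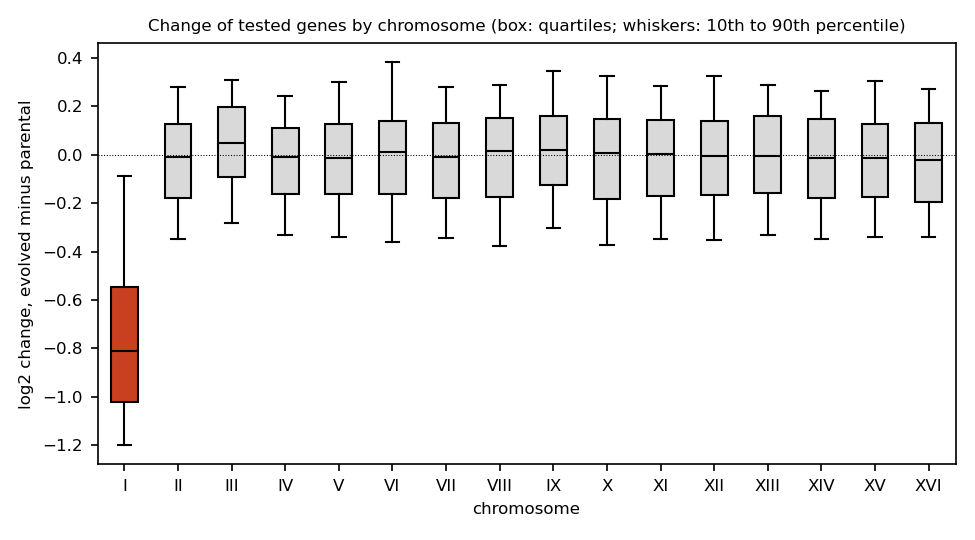
Log2 change, evolved minus parental, of the tested genes of each chromosome, with the median as a line, quartiles as a box and the 10th to 90th percentile as whiskers. Chromosome I (red) has a median of -0.81, and the other 15 medians lie between -0.02 and 0.05.

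The falls covered genes of unrelated function along the chromosome. CLN3, a G1 cyclin that sets cell size at the start of the cycle, was at 1249 and 1324 against 669 and 660 (-0.95 ± 0.10, adjusted p = 0.00011). SNC1, a vesicle fusion protein, was at 412 and 434 against 210 and 203. PRP45, a splicing factor, was at 514 and 465 against 210 and 246. PMT2 went from 1999 and 1895 to 720 and 707, a 2.73-fold fall. BDH2, SAW1 and FLO9 had changes of -1.40, -1.34 and -1.40, FLO9 not being called without parental array 2 (-1.23) or either evolved array.

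By systematic name 61 of the genes lie on the left arm and 20 on the right, and 53 and 10 of them fell, with medians of -0.86 and -0.53. Genes of the chromosome that were not called included CDC19, pyruvate kinase, at 8791 and 9041 against 8466 and 8409 (-0.08, adjusted p = 0.39). CYS3, cystathionine gamma-lyase of the sulfur pathway, was at 1807 and 1962 against 1531 and 1565 (-0.28, adjusted p = 0.20). GCV3, given above, differed upwards. EFB1, also very bright, fell by 0.21 (SE 0.04), and was not called without either evolved array (adjusted p = 0.060 and 0.098). YAR010C, a Ty element gene with a probe set shared by many copies elsewhere, differed by 0.86 (adjusted p = 0.053).

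Called genes outside chromosome I, 387 of 5271 tested there, were sometimes next to each other in the order of tested genes. The number of such runs to be met by chance was not worked out, so the counts are no sign of clustering. With the tested genes put in the order of the R64 table, 76 of the 387 called genes formed 35 runs with the same direction. In a run each gene followed the last among tested genes, so genes that were not tested may lie between them. Of the runs 4 held 3 or more genes. These were SOR2, HXT15, THI13 and YDL241W on chromosome IV, DDI3, SNO3, SNZ3 and AAD6 on chromosome VI, CTF13, SNO1 and SNZ1 on chromosome XIII, all higher, and FIT2, FIT3 and FRE5 on chromosome XV, all lower. The run on chromosome IV and the one on chromosome VI hold probe sets shared with copies at other chromosome ends. Position is therefore uncertain for SOR2, HXT15, THI13, DDI3, SNO3 and SNZ3. CTF13, a kinetochore protein gene beside SNO1, went from 29.3 and 32.8 to 57.0 and 58.2 (0.89 ± 0.13), a faint signal next to one of the strongest rises. YDL241W and DDI3 were lost without parental array 1 (0.50 and 0.37) and without either evolved array. SNO4 and ERR3, neighbours near the end of chromosome XIII with shared probe sets, rose by 1.31 ± 0.18 and 1.27 ± 0.21.

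Over 15 settings of the analysis 32 genes were called every time. Of these 14 were higher, namely SNO1, THI4, YPS6, THI13, MET6, MET3, MET2, MET10, PDC6, SNO4, GCV2, YLR460C, MXR1 and HSP31. The 18 lower ones were STL1, SDD1, ENB1, ALT2 and FTR1 and 13 genes of chromosome I. YLR460C, of unknown function, was at 288 and 340 against 699 and 747 (1.21 ± 0.21). SDD1 was at 123 and 126 against 59.1 and 51.9 (-1.17 ± 0.12).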

How the data were processed

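The deposited values are signal intensities on a linear scale, 1 per probe set and array. The submitters' processing notes name MAS5 without saying what it did, and per the labels' protocols biotin-labelled cRNA was made from 100 ng of total RNA. The authors' scaling of the deposited intensities is not stated, and no normalization was added. Gene names came from the platform annotation, brought up to date with the R64 gene table. Of 10928 probe sets 5498 had 1 S. cerevisiae gene (5449 genes), 1746 had 1 S. pombe gene, 213 were controls, 1 had several genes and 3470 had none. Genes above background on 2 or more arrays, 5352 in all, were tested.

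The log2 of the deposited intensities was modelled by limma 3.58.1 (R 4.3.3), with 1 mean per group over all 12 arrays, a variance trend and Benjamini-Hochberg adjustment over 5352 genes at 0.05 (two-sided). Values after ± are SEs of log2 changes unless named SD, and folds are ratios of geometric means. Members, the 50 gene lists and the named genes were chosen with earlier results of these data known. The rule named, among called genes, the 12 largest changes and 5 largest gaps each way, up to 4 per list and on chromosome I, and 9 fixed genes. Other genes named were chosen after their values were seen. Replicate numbers did not pair the samples. Data were simulated with 200 of 5352 genes changed and the same spread in every group. On these the fit of evolved against parental arrays recovered 44% at a log2 of 0.5, 97.5% at 1 and 100% at 2. The real groups spread unequally (fitted weights, lower for a wider spread, of 0.29 parental, 3.69 evolved and 0.98 homozygote), so these rates may not hold for them. No gene or promoter sequences were used here.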

Additional observations from a re-analysis of the deposited data

Results flagged for a closer look

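In 10 genes 1 of the 8 homozygote arrays stood apart from the other 7 by Dixon's criterion, among 138 genes screened, where chance alone gives about 1 in 20. Homozygote 1 was highest in GAL7, at 191.5 against 68.2 to 111 in the others, and in GAL2, at 179 against 103 to 128. Homozygote 6 was highest in BDH2, at 276 against 141 to 194, and lowest in BNA2, at 1578 against 1924 to 2252. Homozygote 7 was lowest in OAF1, at 82.2 against 96.5 to 111, and highest in MHT1, at 1177 against 704 to 879, and in ADE12, at 4494 against 3929 to 4176. Homozygote 3 was lowest in SPO22, at 19.1 against 27.7 to 38.6, and in ARG2, at 89.4 against 104 to 112. Homozygote 2 was lowest in ARG3, at 498 against 818 to 1253. The parental and evolved groups hold too few arrays for this check.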

How the results depend on the processing

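The main counts were 171 genes higher and 279 lower. They moved by more than 1.5 times when the 4 arrays were fitted alone (20 and 26), when each group had its own spread (74 and 110) and when both evolved arrays were counted as 1 (53 and 80). Leaving out 1 array gave 45 to 403 higher and 73 to 460 lower, with 1537 to 2398 genes above and 1775 to 2654 below every parental value kept. The upper ends, 2398 and 2654, came from fits without a parental array, where only 1 parental value was left to compare with. Counts of this kind cannot fall when an array is left out, because fewer comparisons have to hold, so their increase says nothing about the strains. The median of chromosome I ran from -0.86 to -0.79 with 1 array left out. Median centring gave 169 and 254 calls and quantile normalization 188 and 268. The difference of XKS1, -0.08 with all arrays, changed sign when arrays were left out (-0.17 to 0.0225). Same-numbered arrays did not deviate together (correlation -0.05), and a fit with the replicate number as a block called 185 higher and 303 lower, 443 of the 450 among them. Of 186 named called genes, 152 missed the threshold with the 4 arrays alone and 88 with group spreads. Calls were also lost with the evolved arrays as 1 or with 1 array left out, where a group held 1 array. No change could reverse its sign in fits of the unaltered values. There the evolved values of called genes all lay on one side of both parental values. Median centring and quantile normalization alter the values, and none of the 186 genes reversed with them. Several list medians changed sign without a parental array, and the following are examples. Without parental array 1 those of ethanol and acetate metabolism (-0.11), the tricarboxylic acid cycle (-0.11) and the respiratory chain (-0.02) turned negative. Without parental array 2 those of RNA polymerase I (-0.07), iron-sulfur cluster assembly (-0.04) and mating genes (-0.03) turned negative. That of aromatic amino acids turned positive (0.17) without parental array 2.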
